A study of Mus musculus with 7 samples.

Results

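Immediate early genes were examined in the growth plate, the cartilage from which long bones grow in length. The set comprised 10 genes, Fos, Fosb, Jun, Junb, Egr1, Ier2, Atf3, Dusp1, Nr4a1 and Zfp36, taken by symbol from 43346 genes in the deposited counts. The choice was made with earlier results of these data known. Total RNA was sequenced from proximal and distal tibial growth plates of 7 male C57BL/6J × CAST/EiJ F1 mice aged 21 days. The mice were killed by cervical dislocation after isoflurane anesthesia, and the growth plates were then dissected rapidly. The mice carry the numbers 1, 2, 3, 4, 5, 7 and 8 in the sample labels. All 7 were of 1 genotype with no treatment named, so there was no control group, and every gene had 1 B6 and 1 CAST allele in the same nuclei, apart from X-linked and mitochondrial genes. The tissue was pulverized whole, and in such bulk RNA fewer cells of a type and less RNA per cell cannot be told apart. The comparisons asked how far the level of each gene varied between mice, whether the ratio of its alleles varied as much, and whether 1 allele gave more RNA than the other.

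Immediate early genes are transcribed within minutes of a stimulus such as a growth factor, mechanical load or stress, without the need for new protein. Kinases that are already present activate transcription factors that wait on the promoters, and many of the messages and proteins are then degraded within the hour, some by products of the same genes. Fos and Jun proteins pair to form the transcription factor AP-1, which in bone is best known for the need for Fos in osteoclast formation, and which is also active in cartilage cells.

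Estimated counts summed to between 14098019 (mouse 7) and 37849667 (mouse 5) per mouse, and the deeper libraries carry the smaller counting error. These sums exceed the average number of read pairs that the labels give, and read ends and lanes were processed separately, so a fragment may have been counted more than once and counting error may be larger than the counts imply. All 10 members reached 10 counts in each mouse, as did 15114 genes in all. The 10 growth plate chondrocyte markers examined, among them Col2a1, Acan and Col10a1, had at least 10 counts in every mouse, and so did all markers of bone, blood, vessel and muscle cells that were examined. Their summed levels are given below beside the results they move with. No 2 libraries agreed within sampling noise (chi-square per degree of freedom at least 14.4 in 21 pairs). The labels give no batch or date.

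The Fos promoter holds the core of the cAMP response element, TGACG, that CREB-family factors bind, and a TATA box. Promoter sequence, from 250 bases before to 50 bases after the gene start in RefSeq (GRCm38.p6), was available for 8 members, without Egr1 and Ier2. The gene positions given below are those of GENCODE. For Atf3, Dusp1, Nr4a1 and Zfp36 the whole promoter window lay inside them, so the 2 sources place the start differently. The core was found on at least 1 strand in 6 of these 8 promoters and in 20.8% of all 32851 promoters. The full element, TGACGTCA, which contains the core, was found in Dusp1 alone among the members and in 1.79% of all promoters. The CArG box, the site of serum response factor, was found in the window of Zfp36 alone among these 8 and in 1.63% of all. The TATA box, TATAAA, was found in Fos and Junb (13.6% of all), the GC box, GGGCGG, in 7 members (35.7% of all), and the AP-1 site, TGANTCA, in none of the 8 (7.81% of all). These are matches of letters within 1 window per gene. Sequence outside the windows, and that of Egr1 and Ier2, was not searched, so a motif missing here may lie elsewhere. The windows below show, for each member with an element core, a full element or a CArG box, 1 match, and for Fos its TATA box as well. The motif is in capitals, written 5′ to 3′ on the strand of the gene, so that a core on the opposite strand reads CGTCA.
Fos, core, chr12:85473812-85473840, plus strand: agttccgcccagTGACGtaggaagtccat
Fos, TATA box, chr12:85473845-85473874, plus strand: tcacagcgcttcTATAAAggcgccagctga
Fosb, core, chr7:19310089-19310117, minus strand: tggagttgcgggTGACGcaagcgcggggg
Junb, core, chr8:84978838-84978866, minus strand: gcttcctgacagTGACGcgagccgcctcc
Atf3, core, chr1:191183324-191183352, minus strand: ttaatagcattaCGTCAgcctgggattgg
Nr4a1, core, chr15:101266794-101266822, plus strand: cccctctccatgCGTCAcggagcgcttaa
Dusp1, full element, chr17:26508597-26508626, minus strand: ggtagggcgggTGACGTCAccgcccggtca
Zfp36, CArG box, chr7:28379267-28379296, minus strand: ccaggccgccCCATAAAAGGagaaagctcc

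Levels of 9 of the 10 members differed by 1.88 to 4.35 times between the lowest and the highest mouse, and Zfp36 by 1.24 times. Levels are given in CPM, the counts per 1000000 counts of a library size scaled by the trimmed mean of M-values (TMM), and the spread as the SD of log2(CPM + 0.5) over the 7 mice. The median of that SD was 0.42 over the members and 0.18 over the 15114 genes. A total of 8 members lay among the 10% of genes with the largest SD. The count was 4 (Fos, Fosb, Egr1 and Dusp1) without mouse 4, in which most members were highest. The median SD without mouse 4 was 0.32 over the members and 0.17 over all genes, and 9 of 10 members were above the median of all genes with and without this mouse. The mice are replicates of 1 condition, so this variation is described and has no test.

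**Figure D1:**
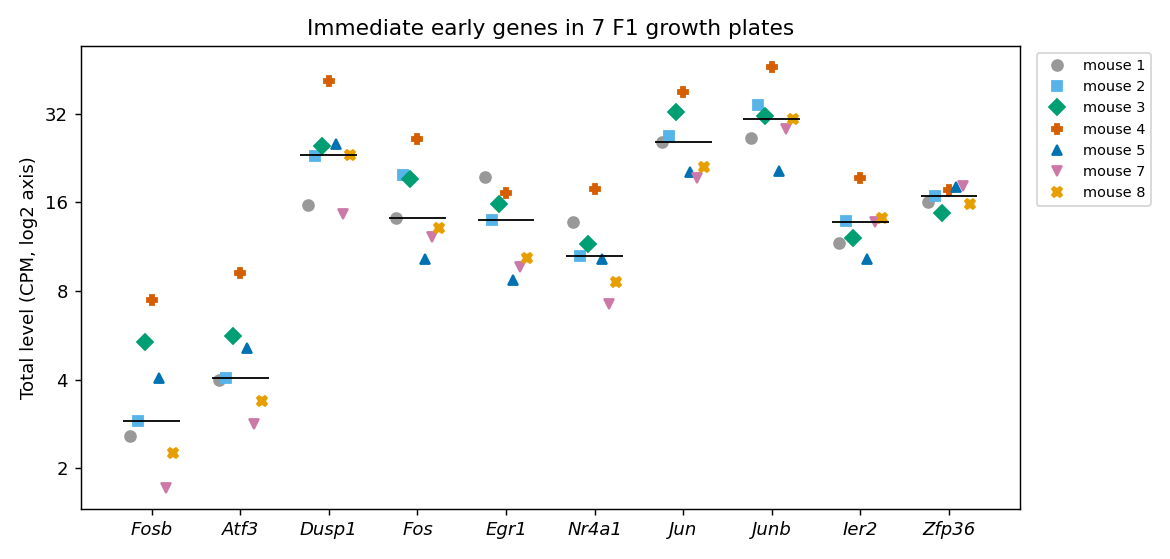
Total level of each immediate early gene (CPM, log2 axis) in each of the 7 mice, with a line at the median. Mouse 4 was the highest for 8 of 10 genes, and Zfp36 stayed between 14.7 and 18.2 CPM.

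Fos encodes the founding partner of Jun in AP-1. It lies on chromosome 12 from 85473890 to 85477273 on the plus strand (GRCm38/mm10, as are all positions here). Its level was 10.3 CPM for mouse 5, 12.2 for mouse 7, 13.1 for mouse 8, 14.2 for mouse 1, 19.3 for mouse 3, 19.8 for mouse 2 and 26.2 for mouse 4. Mice 2, 3 and 4 were thus above the other 4 mice. The biological coefficient of variation, the spread that edgeR estimates beyond counting error, was 32.6% for Fos against a trend of 13.3% for genes of its level.

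Fosb, a paralog of Fos that also pairs with Jun proteins, lies on chromosome 7 from 19302696 to 19310051 on the minus strand. Its level was the lowest of the members and its spread the largest, from 1.72 CPM in mouse 7 through a median of 2.90 to 7.48 in mouse 4. Mouse 3 had the next highest level, 5.35 CPM. These levels rest on 25 to 158 counts per mouse. The SD of the log2 level was 0.65, larger than in 99.5% of genes (0.32 with a pseudocount of 5, below the 0.36 of Fos), and the biological coefficient of variation was 49.6% against a trend of 17.8%.

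Jun and Junb encode partners that Fos proteins need to bind DNA, Junb being the weaker activator at many sites. Jun lies on chromosome 4 from 95049034 to 95052222 on the minus strand, and Junb on chromosome 8 from 84974484 to 84978718 on the minus strand. The level of Jun was 19.4 CPM in mouse 7, 25.6 at the median and 37.9 in mouse 4. That of Junb was 20.4 CPM in mouse 5, 30.7 at the median and 46.1 in mouse 4. Mouse 4 stood above the next highest mouse in both genes, mouse 3 at 32.5 CPM for Jun and mouse 2 at 34.2 CPM for Junb. Jun overlaps the antisense transcript Junos, which had 2.04 to 19.4 counts per mouse, and exons of Junb overlap Prdx2 on the opposite strand, which was highest in mouse 5. Whether strand was used in counting is not given in the sources used here. The total of Jun was not whole in 5 mice (tolerance 0.0001, here and below), which marks reads divided between genes.

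Atf3, a stress-induced factor of the same basic leucine zipper class, lies on chromosome 1 from 191170296 to 191218039 on the minus strand. It ranged from 2.82 CPM in mouse 7 through a median of 4.06 to 9.21 in mouse 4, on 41 to 200 counts per mouse. The highest level after mouse 4 was 5.63 CPM, in mouse 3, and without mouse 4 the SD of its log2 level was 0.33 in place of 0.51.

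Egr1 and Nr4a1 encode zinc finger transcription factors, Nr4a1 being an orphan nuclear receptor. Egr1 lies on chromosome 18 from 34859823 to 34864984 on the plus strand, and Nr4a1 on chromosome 15 from 101254269 to 101274795 on the plus strand. Egr1 was highest in mouse 1 at 19.6 CPM, followed by mouse 4 at 17.2, with a median of 13.9 and a lowest level of 8.69 in mouse 5. Nr4a1 was 7.23 CPM in mouse 7, 10.5 at the median and 17.8 in mouse 4, and mouse 1 was the next highest at 13.7. For Egr1 the spread did not rest on mouse 4, the SD of the log2 level being 0.44 with and without it. Mice 1, 2, 3 and 4 were the 4 highest for both genes.

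Ier2, an early-response nuclear protein, lies on chromosome 8 from 84661331 to 84662852 on the minus strand. Its level was 10.3 CPM in mouse 5, 13.8 at the median and 19.3 in mouse 4, and the other 6 mice lay at or below 14.2 CPM. Its SD was 0.28 with mouse 4, larger than in 82.4% of genes, and 0.17 without it, larger than in 53.2%.

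Dusp1 and Zfp36 encode proteins that end the early response. Dusp1 is a phosphatase that switches off MAP kinases, and Zfp36 (tristetraprolin) binds AU-rich messages, those of several early genes among them, and speeds their decay. Dusp1 lies on chromosome 17 from 26505590 to 26562128 on the minus strand. Its level was 14.6 CPM in mouse 7, 15.7 in mouse 1, 23.2 at the median and 41.2 in mouse 4, with the next highest mouse, mouse 5, at 25.2. The biological coefficient of variation was 33.9% against a trend of 12.8%. Exons of Dusp1 overlap Ergic1 on the opposite strand, which ranged from 91.7 to 114 CPM and was also highest in mouse 4. The part of Ergic1 reads in the level of Dusp1 was not tested.

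Zfp36 lies on chromosome 7 from 28376784 to 28380253 on the minus strand and was the exception among the members. It ranged from 14.7 CPM in mouse 3 through a median of 16.8 to 18.2 in mouse 7, the mouse in which 5 other members were lowest. Its SD of 0.11 was larger than in only 13.4% of genes. The biological coefficient of variation was 5.28%, below the trend of 13.3%, while the other 9 members were above their trends (31.4% of all genes were above).

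The members were high together mainly in mouse 4, while their lowest levels were divided between mice 5 and 7 for all but Zfp36. The mean of their standardized log2 levels was 1.51 in mouse 4 and 0.21 in mouse 3, the next highest. Mouse 4 had the highest level of 8 members, where 18.5% of all genes were highest in this mouse, and mouse 7 had the lowest level of 5 members, where 13.8% of all genes were lowest. With total counts in place of TMM-scaled library sizes, mouse 4 was highest for 7 members and 4.88% of all genes. The summed level of the 10 members was 128 CPM for mouse 7, 133 for mouse 5, 143 for mouse 8, 150 for mouse 1, 166 for mouse 2, 173 for mouse 3 and 240 for mouse 4.

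Other measures moved with mouse 4. Of the 10 chondrocyte markers, 8 were highest in mouse 4, and their summed level was 110343 CPM there against 61264 to 84522 CPM in the other 6 mice. The mitochondrial share of counts was lowest in mouse 4, 0.474% against up to 0.937%, and the chaperone Hspa8 was lowest there, at 610 CPM against up to 930 CPM. Of 11 heat shock genes, Hspa8 included, 4 were lowest and 3 (Hspa1a, Hspb1 and Hsf1) highest in mouse 4, and the sum of the other 10 was 248 CPM there and 244 to 271 CPM over all mice. Erythroid markers summed to 15031 to 19633 CPM in mice 5, 7 and 8, where the summed members were lowest, and to 8072 to 12531 CPM in the other 4 mice. B-lineage markers also separated these mice, with sums of 303 to 387 CPM in mice 5, 7 and 8 and 135 to 245 CPM in the others. Endothelial markers summed to 235 to 245 CPM in mice 5, 7 and 8 and to 265 to 301 CPM in the others. Osteoblast markers summed to 35563 to 39840 CPM in mice 5, 7 and 8 and to 53010 to 68830 CPM in the others. Of the remaining markers, 0 of 6 osteoclast, 1 of 7 neutrophil, 0 of 7 B-lineage, 0 of 6 endothelial, 0 of 7 skeletal muscle and 1 of 6 macrophage genes were highest in mouse 4, as were 1 of 7 osteoblast and 0 of 7 erythroid genes. The part of cell composition in the levels of the members was not tested.

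Jun and Junb followed Fos most closely across mice. Pearson's r with Fos was 0.94 for Jun (exact permutation test over all pairings, two-sided, p = 0.00198, FDR = 0.341) and 0.91 for Junb (same exact test, p = 0.00476, FDR = 0.356). Spearman's rho was 0.93 for Jun (exact p = 0.00675) and 0.89 for Junb (exact p = 0.0123). Without mice 2 and 4, the farthest from the median of Fos, r was 0.92 for Jun and 0.75 for Junb. Among 9 members compared with Fos, these 2 had a positive r at an exact p under 0.05, where 5.29% of genes did (799 of 15113). Leaving out mouse 5 raised that count to 5, with r of 0.92 for Fosb, 0.92 for Atf3 and 0.87 for Dusp1 (exact permutation p = 0.00417 to 0.0222). Egr1 passed without mouse 1 (r = 0.98, exact p = 0.00556) and Ier2 without mouse 3 (r = 0.83, exact p = 0.0417). The count was 3 in each of these 2 settings and stayed at 2 without mouse 2, 4, 7 or 8. The share of all genes that passed is given for the full set of 7 mice only. None of the 9 had an FDR under 0.20 over all genes, and neither did any of the 15113 genes (0.0%).

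For 6 of the other members r with Fos lay between 0.64 (Dusp1) and 0.72 (Ier2), with exact p from 0.0595 to 0.118, and for Zfp36 it was -0.24 (exact permutation p = 0.596). When mice 2 and 4 were left out, r with Fos was 0.73 for Egr1, 0.44 for Fosb and 0.43 for Nr4a1. It was 0.36 for Atf3, 0.19 for Ier2, 0.12 for Dusp1 and -0.89 for Zfp36. Over all 45 pairs of members r had a median of 0.58, ranged from -0.47 to 0.98 and was positive in 39. All these values share the same 7 libraries and scaling.

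The members also differed in level per kilobase of exon, the scale on which genes can be compared. In CPM per kilobase Junb was highest, at 13.5 ± 3.45 (SD, n = 7), followed by Ier2 (8.93 ± 1.90), Jun (8.23 ± 2.15), Dusp1 (7.24 ± 2.63), Fos (6.99 ± 2.38), Zfp36 (4.82 ± 0.368), Nr4a1 (3.24 ± 1.00), Egr1 (3.03 ± 0.928), Atf3 (2.27 ± 0.991) and Fosb (0.602 ± 0.327). Junb was above Ier2, and Atf3 above Fosb, in each of the 7 mice (sign-flip permutation, exact and two-sided, p = 0.0156, as small as 7 mice can give). Zfp36 was above Nr4a1 in 6 of 7 mice (same exact test, p = 0.0312). For the other 6 neighbours in this order no difference was shown (same exact test, p = 0.0625 to 0.828). This does not show equal levels, as the mean log2 difference was 0.47 for Fos over Zfp36 and 0.46 for Egr1 over Atf3. The p-values in this order were not adjusted over the 9 neighbours.

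The allele ratio of the members spread about as much as that of other genes. The SD over mice of log2((CAST + 0.5)/(B6 + 0.5)) had a median of 0.26 over the 10 members and 0.27 over the 14558 genes whose alleles were not equal in every mouse. The SD of the total was larger than the SD of the ratio for 6 of 10 members, where it was larger for 27.4% of genes. These were Fos, Jun, Junb, Egr1, Dusp1 and Nr4a1. For Fos the SD was 0.46 for the total and 0.28 for the ratio, for Dusp1 0.48 and 0.16, and for Junb 0.35 and 0.17. Atf3 was at 0.51 for both, while Fosb (0.65 and 0.83), Ier2 (0.28 and 0.47) and Zfp36 (0.11 and 0.14) had the larger SD in the ratio. The ratio carries more counting error than the total. The SD that the counts imply was 0.17 for the total and 0.34 for the ratio of Fosb, and 0.08 and 0.16 for Ier2. Divided by this counting SD, the spread had medians over the 10 members of 4.97 in the total and 1.84 in the ratio. These quotients were 3.93 and 2.41 for Fosb and 3.52 and 2.92 for Ier2. They are not given for other genes, so a larger quotient in the total is not shown to be particular to the members. The counting SD is larger for the ratio by construction, and both counting SDs are too small if fragments were counted more than once. The part of counting error in the order of the 2 SDs was not tested.

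**Figure D2:**
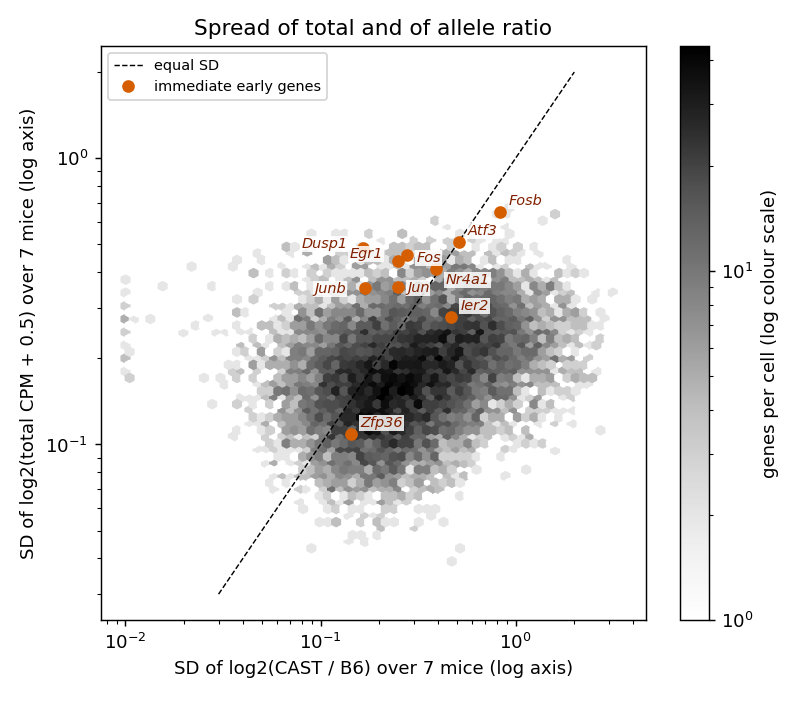
SD of log2(total CPM + 0.5) against SD of log2(CAST/B6) over 7 mice, both on log axes, for all genes (grey cells shaded by number of genes, SD of the ratio drawn at 0.01 where smaller) and the 10 immediate early genes (points). Points above the dashed line of equal SD had the larger SD in the total, as 6 of the 10 did. Counting error is not removed from either SD, and Zfp36 lies low in both.

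Levels of the B6 and CAST alleles were correlated across mice in 5 members. Pearson's r between log2 CPM of the B6 and the CAST allele across the 7 mice was 0.96 for Dusp1, 0.91 for Junb, 0.88 for Egr1, 0.86 for Fos and 0.80 for Jun (exact permutation test over all pairings, two-sided, p = 0.00476 to 0.00734, FDR = 0.0543 to 0.0682 over 14558 genes). At an FDR under 0.20 this made 5 of 10 members, where 24.7% of genes passed. Spearman's rho was 0.86 to 0.93 for these 5 (exact p = 0.00675 to 0.0238). Without the 2 mice farthest from the median B6 level r was 0.97 for Dusp1, 0.99 for Egr1, 0.90 for Fos, 0.71 for Jun and 0.54 for Junb. Without mouse 4 alone the p-value of Fos was 0.0903 (exact, n = 6), with r = 0.76, and that of Jun was 0.0694 to 0.0736 (exact, n = 6) without mouse 5, mouse 7 or mouse 8.

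For the other members r between alleles was 0.67 for Nr4a1, 0.66 for Atf3, 0.55 for Fosb, 0.42 for Zfp36 and 0.19 for Ier2 (exact permutation p = 0.0994 to 0.675). The values of Atf3 and Nr4a1 rested on mice 4 and 7, without which r was -0.10 and 0.15. Leaving out the 2 mice farthest from the median B6 level also changed the other 3. It gave r of 0.96 for Fosb (without mice 1 and 4), 0.95 for Zfp36 (mice 2 and 3) and -0.68 for Ier2 (mice 4 and 7). Without mouse 5 alone r was 0.84 for Atf3 (exact p = 0.025). EMASE, the tool with which the authors assigned reads, divides reads that fit both alleles between them, which ties the alleles to each other. The number of reads that tell the alleles apart is not given in the sources used here, so the size of this tie was not tested.

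**Figure D3:**
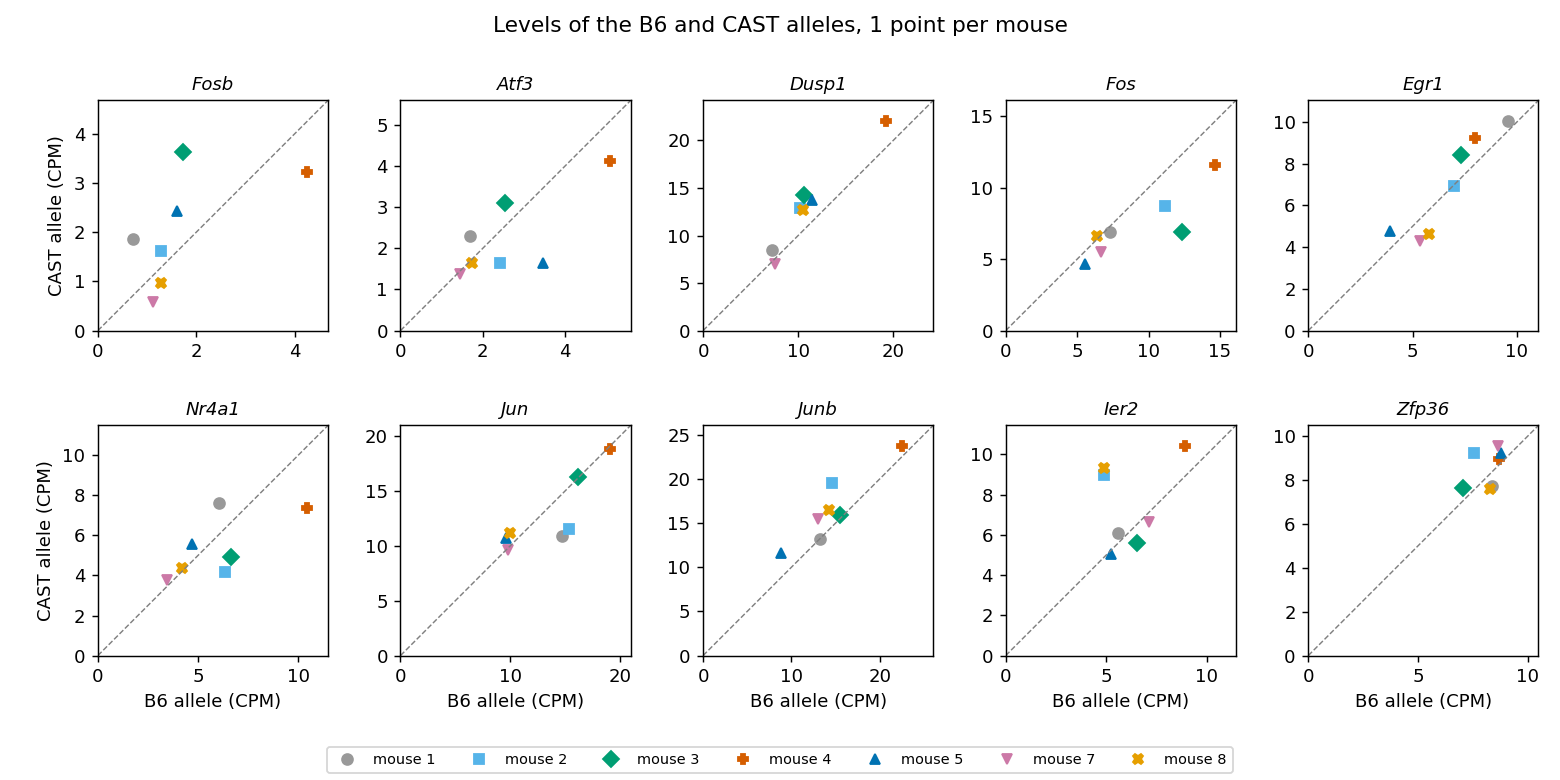
Level of the CAST allele against that of the B6 allele (both in CPM), 1 point per mouse, for the 10 immediate early genes, with a dashed line of equal alleles. The 2 alleles follow each other across mice in Dusp1, Junb, Egr1, Fos and Jun, and less in Ier2.

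No member passed the test of its allele ratio against its level. Pearson's r between log2 ratio and log2 total across the 7 mice ranged from -0.46 for Fos to 0.44 for Dusp1, and 0 of 10 members had an exact permutation p under 0.05 (5.71% of genes did). Over these 10 relations the exact p ranged from 0.307 to 0.700 and the FDR from 0.922 to 0.990. Spearman's rho ranged from -0.57 for Fos to 0.61 for Ier2, with a smallest exact p of 0.167. Single mice decided 2 of these values, since r was 0.80 for Dusp1 without mouse 4 (exact p = 0.0167) and 0.90 for Egr1 without mouse 5 (exact p = 0.0264). Without the 2 mice farthest from the median total, r ranged from -0.67 for Fos to 0.84 for Egr1.

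No member was called between alleles when the mouse was not part of the fit. With the alleles as 2 groups of 7, edgeR's likelihood-ratio test called 0 of 10 members at a Benjamini-Hochberg FDR under 0.20, where it called 32.6% of the 21805 genes tested. An unadjusted p under 0.05 was reached by 0 members, also with edgeR's quasi-likelihood test and DESeq2. That comparison sets the spread between mice against the difference between alleles, and between-mouse spread was large in these genes. With the mouse as a replicate block, which compares the alleles within each mouse, the same test called 3 of 10 members (42.7% of all genes), namely Fos, Junb and Dusp1, and so did the quasi-likelihood test (37.6% of all genes). The same 3 had an exact sign-flip p under 0.05, where 31.9% of genes did, so the share of members was close to that of all genes.

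For Fos the B6 allele had 97.2 to 354 counts per mouse (median 244) and the CAST allele 79.8 to 248 (median 197). The log2 ratio of CAST to B6 was -0.30 ± 0.28 (SD, n = 7), the lowest being -0.84 (mouse 3) and the highest 0.05 (mouse 8), with the B6 allele higher in 6 of 7 mice (sign-flip permutation, exact, p = 0.0312). The FDR of edgeR's likelihood-ratio test was 0.357 without and 0.0292 with the replicate block, and that of the quasi-likelihood test with the block 0.0912. The B6 allele was thus the higher in every mouse but mouse 8, and the call depended on pairing the alleles.

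For Dusp1 the CAST allele was higher in 6 of 7 mice, with 102 to 538 counts (median 368) against 110 to 447 (median 291) for the B6 allele. The log2 ratio was 0.23 ± 0.16 (SD, n = 7), between -0.10 (mouse 7) and 0.43 (mouse 3), and its test gave the same value (sign-flip permutation, exact, p = 0.0312). The FDR of edgeR's likelihood-ratio test was 0.460 without and 2.95e-08 with the block, where the quasi-likelihood test gave 0.0103.

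For Junb the CAST allele was higher in 6 mice and equal to the B6 allele in mouse 1, with 224 to 560 counts (median 443) against 189 to 444 (median 417). Both alleles had 443 counts in mouse 1, as an even division of reads that fit both alleles would also give. How many reads told the alleles of Junb apart was not tested. The log2 ratio was 0.20 ± 0.17 (SD, n = 7), with a highest value of 0.42 in mouse 2 (sign-flip permutation, exact, p = 0.0312). The FDR of edgeR's likelihood-ratio test was 0.468 without and 0.00577 with the block, where the quasi-likelihood test gave 0.0431. With 1 mouse left out, 6 mice allow no sign-flip p below 0.0312, and only Fos without mouse 8, Dusp1 without mouse 7 and Junb without mouse 1 stayed under 0.05.

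The other 7 members had mean log2 ratios from -0.19 (Atf3) to 0.25 (Ier2), with exact sign-flip p from 0.266 to 0.906. The ratio was most variable for Fosb, from -0.89 in mouse 7 to 1.35 in mouse 1, on few counts. Ier2 spread from -0.22 in mouse 3 to 0.93 in mouse 8, and without mouse 3 edgeR's likelihood-ratio test called it with the CAST allele higher (log2 fold change 0.36, FDR = 0.198). Egr1 was nearest to equal alleles, at 0.02 ± 0.25 (SD, n = 7), and its sign depended on which mice were counted. Zfp36 was at 0.06 ± 0.14, Jun at -0.08 ± 0.25 and Nr4a1 at -0.11 ± 0.39 (SD, n = 7 each).

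**Figure D4:**
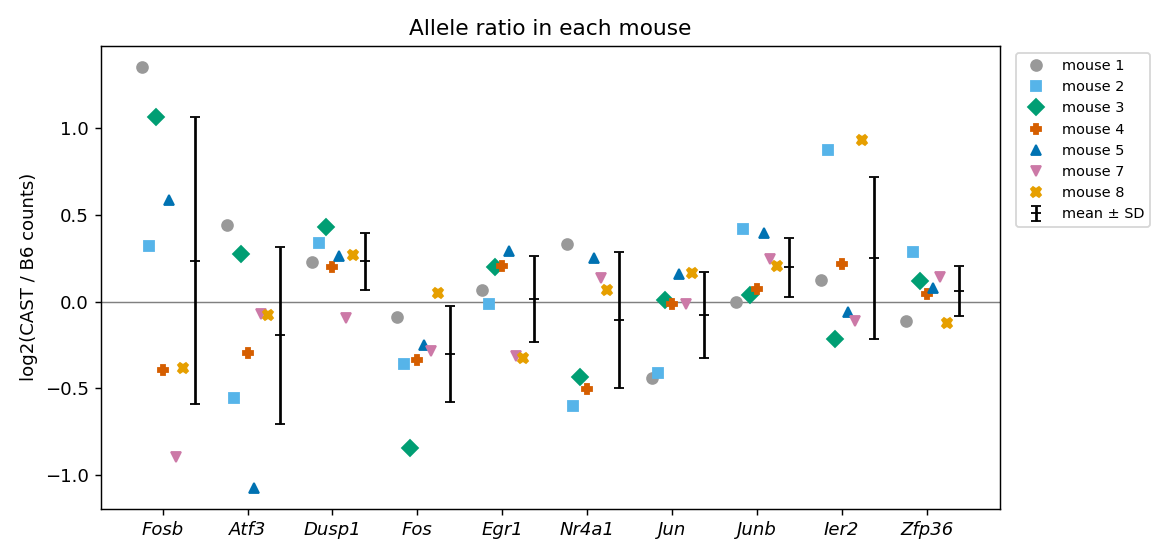
Log2 ratio of CAST to B6 counts for each immediate early gene in each of the 7 mice, with the mean ± SD beside the points. The points of Fos lie below 0 in 6 mice, those of Dusp1 and Junb lie above 0 in 6, and Fosb has the widest spread, from -0.89 to 1.35.

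Genes of the same pathway were taken from lists. Unless the block is named, their calls are those of edgeR's likelihood-ratio test without the mouse in the fit, at an FDR under 0.20. The background was 15.4% with the CAST allele higher and 17.2% with the B6 allele higher, and 42.7% in either direction with the block. Among 11 other AP-1 and leucine zipper partners of Fos and Jun, 0 were called without the block. With it, 1 was called with the CAST allele higher and 4 with the B6 allele higher. The median SD of the log2 totals of this list was 0.19, near the 0.18 of all genes and below the 0.42 of the members. Jund, the Jun family member known for steady expression, ranged from 34.0 CPM in mouse 1 to 51.5 in mouse 4, and Fosl2, a Fos paralog, from 89.5 to 126 CPM. The B6 allele of Fosl2 was higher in 7 of 7 mice (edgeR likelihood-ratio test, FDR = 0.758 without and 0.0208 with the block).

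Of 19 other early-response transcription factors tested, 3 (Id1, Id2 and Cebpb) were called with the CAST allele higher and 0 with the B6 allele higher. The median SD of the log2 totals was 0.24. With the block, 5 of the list were called with the CAST allele higher and 1 with the B6 allele higher. Id1, a target of BMP signalling that blocks basic helix-loop-helix factors, had 375 ± 109 B6 and 495 ± 121 CAST counts (SD, n = 7), with the CAST allele higher in 7 of 7 mice (FDR = 0.115), and its level ranged from 23.4 CPM in mouse 1 to 55.4 in mouse 4. Cebpd ranged from 5.95 CPM in mouse 1 to 19.5 in mouse 8, and Csrnp1 from 11.4 in mouse 3 to 22.6 in mouse 4, with r to Fos of 0.04 and -0.15.

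Of 28 other early-response effectors, 4 (Arc, Ccn1, Zfp36l1 and Homer1) were called with the CAST allele higher and 1 (Tob1) with the B6 allele higher. The median SD of their log2 totals was 0.19. With the block, 7 of the list were called with the CAST allele higher and 5 with the B6 allele higher. Arc, a synaptic protein known as an early gene of neurons, had 89.1 ± 28.4 B6 and 182 ± 55.6 CAST counts (SD, n = 7), with a log2 fold change of 1.07 (edgeR likelihood-ratio test, FDR = 1.95e-10). Ccn1, a matricellular protein of cartilage and vessels, had 1292 ± 461 B6 and 1742 ± 562 CAST counts (FDR = 0.0186), and was highest in mouse 4 at 164 CPM. The level of Ier3, an early-response survival factor, ran closely with Fos across mice, with r = 0.98 and 15.8 CPM in mouse 4 as its highest value. Its allele counts were equal in every mouse (tolerance 1e-06), as they are when all reads are divided evenly. The allele ratio of Ier3 is thus no measure of its allele balance. Zfp36l1, a paralog of Zfp36, was called with the CAST allele higher (log2 fold change 0.34, FDR = 0.00283) and ranged from 26.9 to 34.3 CPM, but its total was not whole in any mouse. Btg1, an antiproliferative factor, was lowest in mouse 4 at 97.4 CPM and highest in mouse 7 at 190 CPM.

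Of 13 other MAP kinase phosphatases and feedback inhibitors, 0 were called with the CAST allele higher and 3 (Dusp6, Spry2 and Spred2) with the B6 allele higher. The median SD of their log2 totals was 0.22. With the block, 3 of the list were called with the CAST allele higher and 4 with the B6 allele higher. Dusp6, a phosphatase of ERK, had 514 ± 158 B6 and 400 ± 147 CAST counts (SD, n = 7) and was higher from the B6 allele in 7 of 7 mice (edgeR likelihood-ratio test, FDR = 0.0188). Dusp2 ranged from 7.24 CPM in mouse 3 to 19.6 in mouse 7, Dusp8 from 8.14 in mouse 8 to 16.6 in mouse 4, and Spry4, an inhibitor of receptor tyrosine kinase signalling, from 8.26 in mouse 7 to 15.0 in mouse 4.

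Of 15 factors that act before the early genes, the kinases and the ternary complex factors that bind with serum response factor among them, 4 were called. Elk1 and Rps6ka3 are X-linked and present in 1 copy in males, and their counts were nearly all from the B6 allele (409 ± 136 against 0.0567 ± 0.0515 for Elk1). Elk3 had the CAST allele higher in 7 of 7 mice (log2 fold change 0.22, edgeR FDR = 0.0604), and Mapk9 was also called with the CAST allele higher. With the block, 5 of the list were called with the CAST allele higher and 5 with the B6 allele higher, Elk1 and Rps6ka3 among the latter. The median SD of the log2 totals in this list was 0.14, the lowest of the 6 lists. Rps6ka1 had the largest SD in it, with 40.7 CPM in mouse 3 and 72.8 in mouse 5, followed in SD by Mapk8 with 7.81 to 12.9 CPM and Rps6ka2 with 23.1 to 34.8 CPM.

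Of 11 heat shock genes, 2 (Hspb1 and Hsf1) were called with the CAST allele higher and 0 with the B6 allele higher, and the median SD of their log2 totals was 0.21. With the block, 5 of the list were called with the CAST allele higher and 0 with the B6 allele higher. Hspb1, a small heat shock protein, had 181 ± 39.2 B6 and 284 ± 70.4 CAST counts (SD, n = 7; edgeR likelihood-ratio test, FDR = 3.88e-05), and its total was not whole in any mouse. Bag3, a partner of the constitutive chaperone Hspa8, ranged from 21.5 CPM in mouse 7 to 35.0 in mouse 3.

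The genes whose levels were most like the members were sought among the 9942 genes that reached 100 counts in all mice, by Pearson's r across the 7 mice with the mean of the members' standardized log2 levels. The 10 most alike were Bace2 (r = 0.99), Rras, Efs, Tmbim1, Glis3, Pdlim4, Card10, Furin, Tgfbi and Cul7 (r = 0.96). Their highest level was 1.30 to 1.72 times their lowest, a narrower range than that of 9 of the 10 members. Among the members r with the mean, to which each contributes, was 0.93 for Jun, 0.91 for Fos and -0.02 for Zfp36. These values describe 7 libraries and carry no test.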

How the data were processed

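Growth plate RNA of 7 mice was sequenced from rRNA-depleted stranded libraries. The authors aligned reads with Bowtie to a joint B6 (mm10) and CAST transcriptome and deposited estimated counts per gene and allele from EMASE, not normalized and not whole, because shared reads are divided. Versions and annotation are not given in the sources used here. Names and positions came from GENCODE release M21, which holds 42462 of the 43346 identifiers, and older pathway symbols were matched through RefSeq synonyms.

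Alleles were compared with edgeR 4.0.16 (glmFit and glmLRT, TMM, counts rounded, limma 3.58.1, R 4.3.3), over the genes in which no mouse had both alleles at 0, with Benjamini-Hochberg FDR under 0.20 over all 21805. Exact permutation tests used a pseudocount of 0.5, as did the log2 levels. Depth was 14098019 to 37849667 counts per mouse, which limits the genes with few counts. Both alleles come from 1 library, so the mouse pairs them: deviations from the allele means correlated within mice at 0.0479 to 0.335 and between mice at -0.284 to 0.239. The scripts were tested on simulated counts.

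Alternatives were the mouse as a block, DESeq2 1.42.0, the quasi-likelihood test, different library sizes, filters and pseudocounts, and each mouse left out. Further genes were named as the 10 most like the members and, from each pathway list, up to 4 genes called with 1 direction in 7 mice and the 3 with the largest SD among those with at least 100 counts in every mouse, and other called genes are named only as members of a count, and 1 gene that the rule names is not reported here. The members and lists were chosen with earlier results of these data known.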

Additional observations from a re-analysis of the deposited data

How the results depend on the processing

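The number of members called between alleles by edgeR's likelihood-ratio test was 0 of 10, where 32.6% of all genes were called. The mouse as a replicate block pairs the alleles of a mouse. With it the number was 3 with the likelihood-ratio test (42.7% of all genes) and 3 with the quasi-likelihood test (37.6%). When single mice were left out the number called was 0 to 1, the 1 being Ier2 without mouse 3. The number at an exact sign-flip p under 0.05, 3 with all mice (31.9% of all genes), was 0 to 1 with 6 mice, which allow no p below 0.0312. The number whose ratio followed the total, 0 with all mice (5.71% of genes), was 0 to 1 (Dusp1 without mouse 4, Egr1 without mouse 5). The number that followed Fos, 2 with all mice (5.29% of genes), was 2 to 5, with 5 reached without mouse 5. The mean log2 ratio of Egr1, 0.02, ranged from -0.029 to 0.073 when single mice were left out and was below 0 without mouse 3 (-0.015), mouse 4 (-0.015) or mouse 5 (-0.029). The median SD of the members' totals, 0.42, was 0.32 without mouse 4 and 0.31 with a pseudocount of 5, where the median of all genes was 0.12 and 8 members were among the 10% of genes with the largest SD. Of the recomputed values for single genes, 663 stayed on the same side, 22 lost and 15 gained their threshold, 3 changed sign (Egr1, above) and 5 moved by more than the standard error of an SD (the SDs of Fosb and Atf3 with a pseudocount of 5, and of Ier2, Atf3 and Dusp1 without mouse 4). The cause of these changes was not tested. Depth limits Fosb and Atf3 most, with as few as 25 and 41 counts in a mouse.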
